A study of Mus musculus with 6 samples.

Results

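The genes described here encode the subunits of the mitochondrial respiratory chain and of ATP synthase in 889 cells, a murine lung cancer cell line. They were chosen by name: Nduf genes (complex I), Sdha to Sdhd with the Sdhaf assembly factors (complex II), Uqcr genes (complex III), Cox4 to Cox8 genes (complex IV), Atp5 genes (complex V, ATP synthase) and genes with the prefix mt-, without pseudogenes. Of 34745 genes in the files, 109 had such a name, and 96 of them had more than 500 counts summed over the 6 libraries, the filter that left 10046 genes for testing. Of the 96 members, 83 are nuclear genes and 13 are the protein-coding genes of mitochondrial DNA, and 12 of the nuclear members are assembly factors and not subunits. By complex, 49 members belong to complex I, 8 to complex II, 9 to complex III, 14 to complex IV and 16 to complex V. The other 13 names had too few counts, and 4 of these (Cox6b2, Cox7b2, Cox8b and Cox8c) had no count in any library.

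RNA was sequenced from 3 libraries of cells with Cas9 and a control sgRNA, labelled sg-con, and from 3 libraries of cells with Cas9 and a kiaa1522 sgRNA, labelled sg-kiaa1522, and the comparison asks which genes differ when kiaa1522 is targeted. The labels give strain C57BL/6, tissue lung and cell line 889 for every sample, with treatment control or KIAA1522-downregulated, and both groups carry a lentiviral Cas9 construct. The study's methods do not say which kiaa1522 sgRNA the sequenced cells carried or whether they came from 1 clone, and nothing says that replicates were separate cultures, so p-values measure the spread between these libraries, which may be technical. The libraries held between 12220001 and 18609376 counts.

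The targeted gene, kiaa1522 (C77080, ENSMUSG00000050390, on chromosome 4 of GRCm38 from 129219578 to 129261404), had 2214, 2404 and 2064 counts in the sg-con libraries and 2554, 3726 and 3667 in the libraries labelled sg-kiaa1522. Its mRNA was therefore higher, not lower, in every library labelled sg-kiaa1522, with a log2 fold change of 0.73 (SE 0.0569, edgeR adjusted p = 9.1e-05). The counts measure mRNA alone and do not give the level of KIAA1522 protein. The groups are called by their labels throughout, and every direction below is one in libraries with more kiaa1522 mRNA. Of the epithelial markers, Epcam had 0 counts in all 6 libraries and Krt7 had at most 3 in any, whereas Krt18 had between 23704 and 40322. Krt8, Krt18 and Krt19 had the most counts of these markers in every library. Nkx2-1 had 970, 1096 and 227 counts in sg-con and 132, 174 and 671 in sg-kiaa1522. Foxa2 had 1570, 1332 and 1394 and then 1035, 2155 and 1794, so both genes overlapped between the groups. Summed CPM (counts relative to library size, scaled by TMM) of 15 lung epithelial markers was 3982 to 4683 in sg-con and 3370 to 3592 in sg-kiaa1522, and that of 10 fibroblast markers was 465 to 484 and 166 to 197, nearly all from Col1a2 and Pdgfrb, while Thy1 and Fap were at 0. Summed CPM of 11 immune markers was 2.36 to 6.11 in sg-con and 11.2 to 13.9 in sg-kiaa1522, where Cd68 rose, while Lyz2 had 63, 18 and 37 counts in sg-con and 11, 17 and 16 in sg-kiaa1522 and Ptprc had at most 14 in any library, and Cd3e, Adgre1 and Nkg7 were at 0 in every library. Summed CPM of 7 endothelial markers was 3.70 to 5.48 and 9.38 to 11.7, where Vwf rose, and Emcn was at 0. The part of these markers in the results on the respiratory chain was not tested.

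The respiratory chain lies in the inner membrane of mitochondria. Complexes I and II pass electrons from NADH and succinate to ubiquinone, complex III passes them on to cytochrome c, and complex IV reduces oxygen, while complexes I, III and IV pump protons whose return flow drives ATP synthase. All complexes but complex II are built from products of both genomes: the nuclear genes are transcribed singly and their proteins imported, whereas mitochondrial DNA is transcribed from each strand as a long precursor that is cut into separate RNAs.

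Respiratory chain mRNAs were lower more often than higher in the libraries labelled sg-kiaa1522. In edgeR's quasi-likelihood test, with p-values adjusted by Benjamini and Hochberg's method over the 10046 tested genes and 0.05 as the limit, 56 of the 96 members (58.3%) fell, 6 (6.25%) rose and 34 did not pass, whereas 26.3% of all tested genes fell and 26.3% rose. The median log2 fold change (sg-kiaa1522 over sg-con) was -0.37 over the members and -0.01 over all tested genes. The members Cox5b, mt-Cytb, Sdhaf4 and Uqcr11, 4 of 96, met the threshold of the study's methods, a change of 1 or more on the log2 scale in addition to that limit, and no member rose past it. The share lower is close to the 4.34% of all tested genes lower, and 2.74% of all were higher. Without sg-con replicate 1, 7 members were lower past that threshold. In 59 members every sg-kiaa1522 library lay below every sg-con library and in 9 every one lay above, against 31.1% and 30.6% of all tested genes. In bulk RNA a smaller number of cells with a given expression and less RNA per cell cannot be told apart.

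**Figure D1:**
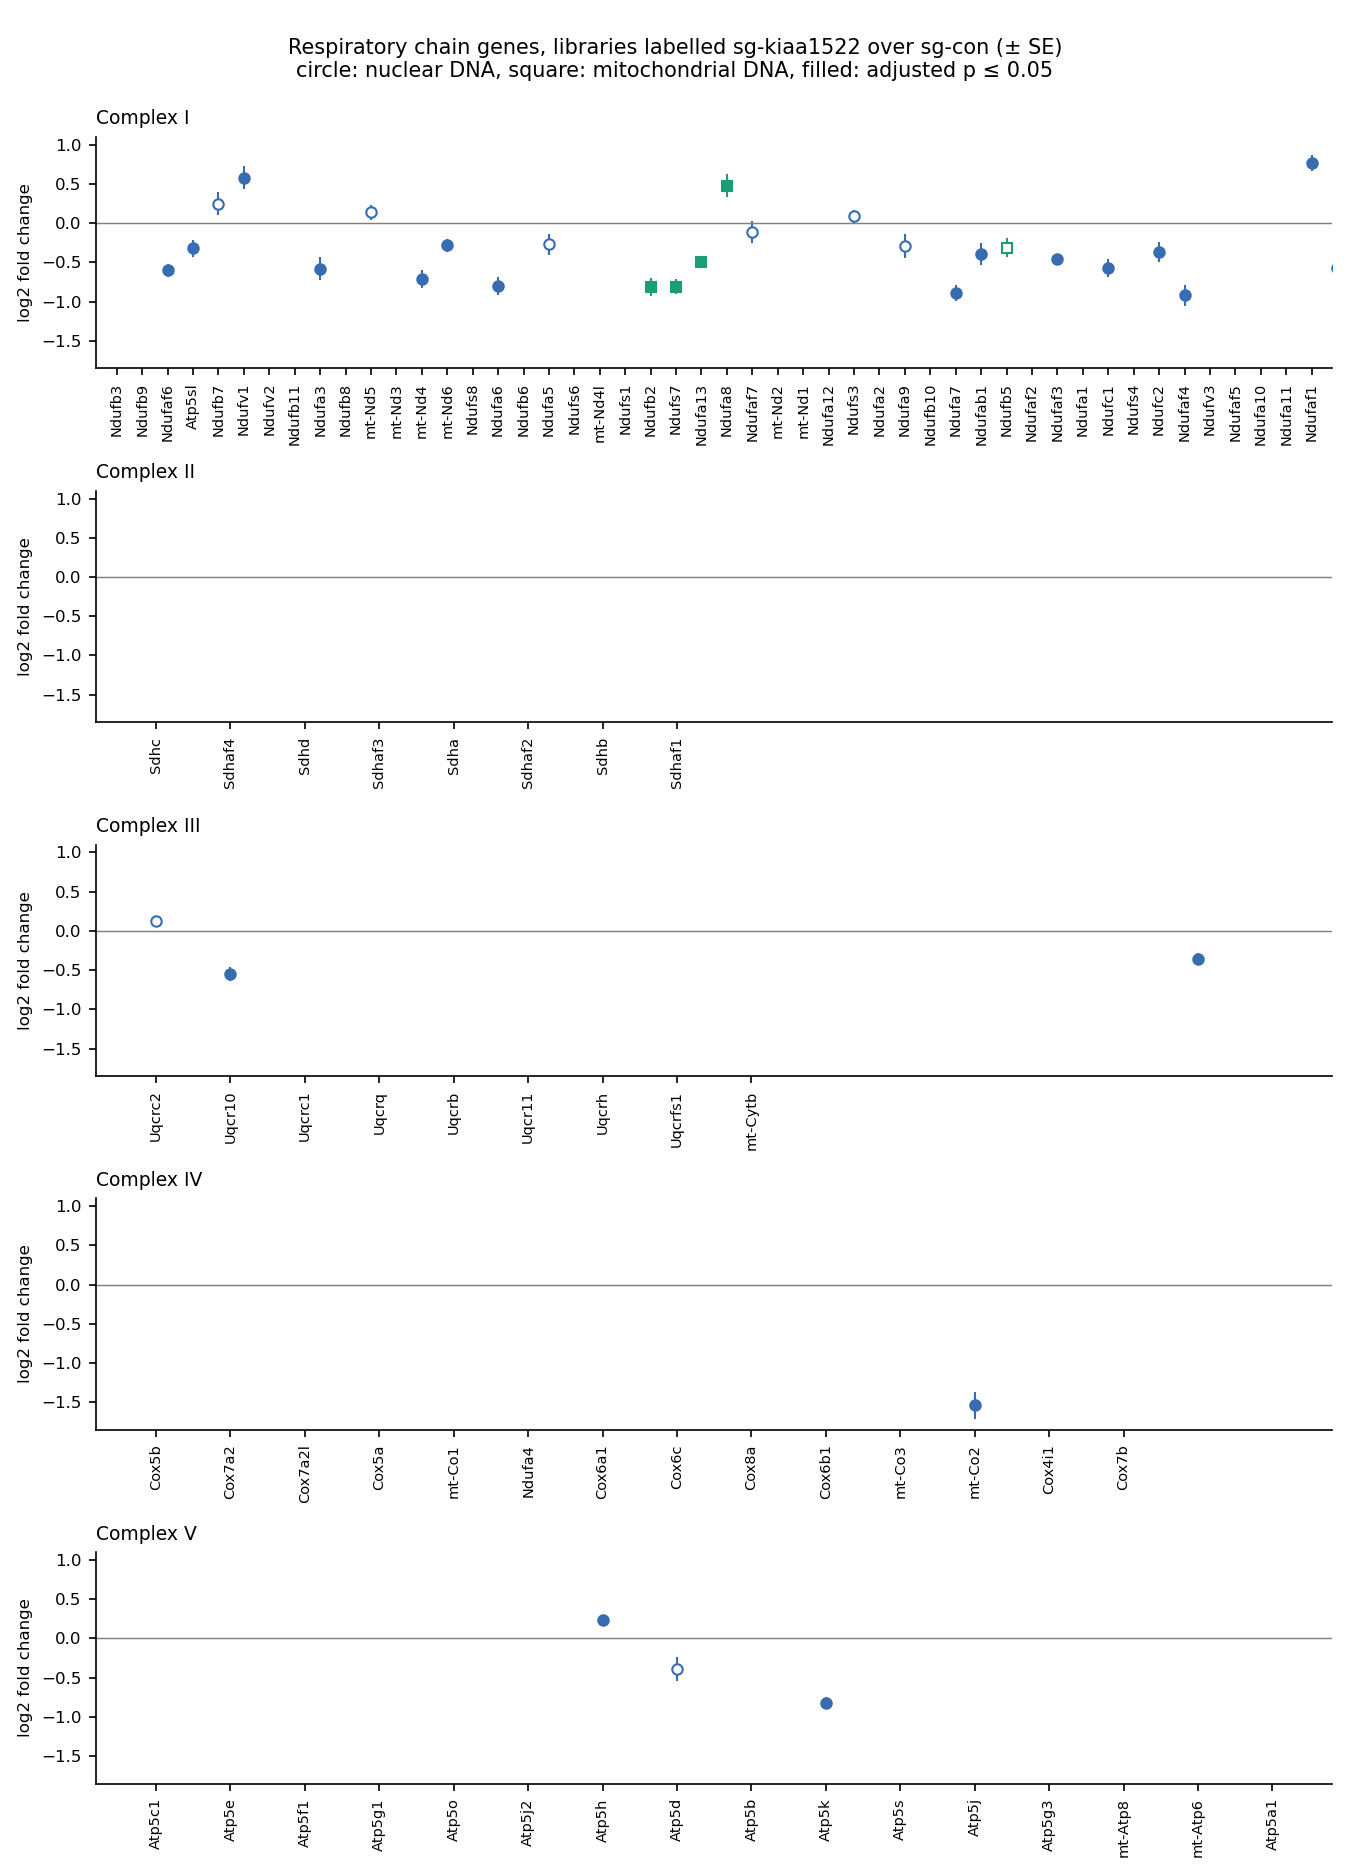
Log2 fold change of the members described here with its standard error, in 5 panels by complex, with nuclear genes as circles and mitochondrial genes as squares, filled where the adjusted p was at most 0.05. Symbols are placed by position in the full member list, so they need not stand above their names and some lie beyond the axis. Most fold changes that passed are below 0, and in complex II these are Sdha, Sdhc and Sdhaf4. Those above 0 that passed are Ndufa8, Atp5sl, mt-Nd6, Uqcrh, Cox7a2l and Atp5c1.

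Members of both genomes fell more often than they rose. Of the 83 nuclear members 47 fell and 5 rose, with a median log2 fold change of -0.37, and of the 13 mitochondrial members 9 fell and 1 rose, with a median of -0.43. Of all tested genes 26.3% fell and 26.3% rose. The 12 assembly factors, 4 lower and 1 higher, had a median of 0.00. The nuclear members together took 0.810%, 0.915% and 0.945% of the counts of the sg-con libraries and 0.747%, 0.699% and 0.699% of the sg-kiaa1522 libraries. The mitochondrial members took far more, 8.77%, 8.71% and 8.45% in sg-con and 7.12%, 7.66% and 7.13% in sg-kiaa1522. Neither share overlapped between the groups. Summed over the nuclear members, CPM was 8857 ± 671 in sg-con and 7185 ± 260 in sg-kiaa1522 (SD, n = 3), or 81.1% of the sg-con level, and summed over the mitochondrial members it was 85978 ± 2088 and 73405 ± 3487, or 85.4%.

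Gene length moved with the fold change across the whole table and bears on most members, which are short. Among other tested genes the median log2 fold change was -0.21 for the 234 with under 1000 bases of exon and 0.10 for the 4532 with 5000 bases or more, and 42.3% of the first and 19.9% of the second fell. The median exon length was 1578 bases for members and 4610 bases for all tested genes. Within length bins the nuclear members lay below the other genes: 13 of 17 members under 1000 bases fell, with a median of -0.39, and 10 of 18 members from 3000 to 5000 bases fell, with a median of -0.37 against -0.02 for other genes and 27.2% of them lower. The contrast in calls was smaller from 1500 to 2000 bases, where 6 of 14 members and 34.2% of other genes fell. In an alternative chosen after these values were seen, in which the trend with length was removed from each library, 40 members fell and 15 rose, with a median of -0.20, against 26.9% of all genes lower and 28.1% higher, and Cox5b alone remained past the methods' threshold on the lower side while Ndufa8 passed it on the higher side. In that alternative 35 of the 83 nuclear members fell and 13 rose, with a median of -0.20. Of the 13 mitochondrial members 5 (38.5%) fell and 2 (15.4%) rose, with a median of -0.15. What made fold changes vary with gene length was not tested.

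**Figure D2:**
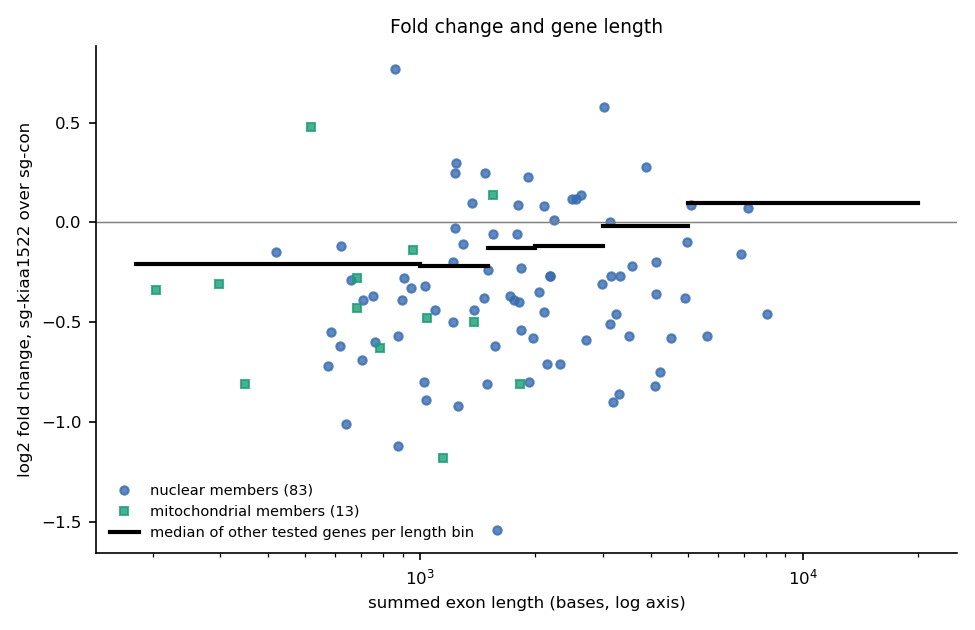
Log2 fold change of the 83 nuclear and 13 mitochondrial members against summed exon length in bases on a log axis, with the median of the other tested genes in each length bin as a black line. The black lines climb from -0.21 to 0.10 with length, and most members lie below the line of their own bin.

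Complex I, the NADH dehydrogenase, had 25 of its 42 nuclear members lower and 2 higher, with a median log2 fold change of -0.38. Removing the length trend left complex I with 17 nuclear members lower and 5 higher, and a median of -0.22. Its 34 nuclear subunits, without assembly factors, together had 2343 ± 245 CPM in sg-con and 1710 ± 68.9 in sg-kiaa1522 (SD, n = 3), or 73.0%, the lowest share among the complexes' nuclear subunits. Its core subunits of nuclear DNA carry the flavin and the iron-sulfur clusters. Ndufv2, an iron-sulfur subunit of the NADH-oxidising end, had 177, 179 and 230 CPM in sg-con and 116, 130 and 110 in sg-kiaa1522, a log2 fold change of -0.71 (SE 0.118, edgeR adjusted p = 0.0019). The groups were separate. Ndufs1, which carries several iron-sulfur clusters, fell by 0.46 on the log2 scale, from 83.4 to 89.4 CPM down to 62.2 to 63.9 CPM. Ndufs7 fell by 0.37, but that call was lost when any library other than sg-con replicate 1 was left out (edgeR adjusted p = 0.062 to 0.12) and with the length trend removed (adjusted p = 0.10). Ndufs3 (log2 fold change -0.27), Ndufs8 (-0.11) and Ndufv1 (0.14) did not pass. Without sg-con replicate 1, Ndufs3 (-0.34, edgeR adjusted p = 0.045) and Ndufs8 (-0.26, edgeR adjusted p = 0.026) did, and so did Ndufs3 without sg-kiaa1522 replicate 1 (-0.37, edgeR adjusted p = 0.030), while with the length trend removed Ndufs8 was at 0.11 and Ndufv1 passed at 0.25.

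Accessory subunits surround that core, and 18 of 27 fell while 1 rose, or 13 and 2 with the length trend removed. The largest falls were those of Ndufa13, also known as Grim-19, Ndufv3 and Ndufa5. Ndufa13 had 46.0, 60.4 and 63.8 CPM in sg-con and 32.0, 30.4 and 27.9 in sg-kiaa1522 (log2 fold change -0.92, SE 0.134, edgeR adjusted p = 0.0011), although 30% of its exon bases overlap the antisense gene Tssk6, which had 1 count in all. Ndufv3 had 137, 171 and 169 CPM in sg-con and 91.7, 82.6 and 81.1 in sg-kiaa1522, a log2 fold change of -0.90 (SE 0.101, edgeR adjusted p = 0.00035). Ndufa5 had 37.0, 39.7 and 44.7 CPM against 23.2, 22.2 and 20, a log2 fold change of -0.89 (SE 0.104, edgeR adjusted p = 0.00042). No library of one group reached the other group's range in these genes. The 18 falls ran from -0.28 (Ndufb11, at -0.02 with the length trend removed) to -0.92.

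Ndufa8, an accessory subunit of the intermembrane space side, went the other way. The gene (ENSMUSG00000026895, chr2:36036326-36049406, minus strand) had 14.6, 17.4 and 15.2 CPM in sg-con and 27.7, 26.6 and 26.5 in sg-kiaa1522. All sg-kiaa1522 libraries lay well above the sg-con range, and the log2 fold change was 0.77 (SE 0.0994, edgeR adjusted p = 0.00063), the largest rise among the members. Its ratio to Ndufa5 within a library, in TPM (a level within a library that corrects for exon length), was 0.469 ± 0.0588 in sg-con and 1.49 ± 0.0859 in sg-kiaa1522 (SD, n = 3). This pair and the other pairs given below were chosen after their values were seen, so the ratios carry no test. Among the 8 complex I assembly factors 3 fell and 1 rose. Ndufaf7, a methyltransferase, fell by 0.57, from 64.1 to 70.4 CPM down to 42.3 to 49.4 CPM. Atp5sl, which despite its name is an assembly factor of complex I (Dmac2), had 8.74, 8.86 and 6.39 CPM in sg-con and 11.5, 12.4 and 12 in sg-kiaa1522, a log2 fold change of 0.58 (SE 0.148, edgeR adjusted p = 0.013). The other assembly factors that fell were Ndufaf3 (-0.40) and Ndufaf2 (-0.31), and 65.6% of the exon bases of Ndufaf2 overlap an antisense RNA. Neither passed once the length trend was removed (both at an adjusted p of 0.13), and 1 of the 8 assembly factors fell and 2 rose.

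Complex II, succinate dehydrogenase, which is wholly nuclear and also serves the citric acid cycle, had the median nearest 0 among the complexes. Its 8 members had a median log2 fold change of -0.01, with 3 (37.5%) lower and none higher, against 26.3% of all tested genes each way. The 4 subunits alone had a median of -0.11, with 2 lower. Summed CPM of the 8 members was 659 ± 11.1 in sg-con and 590 ± 5.67 in sg-kiaa1522 (SD, n = 3), or 89.5%, with separate groups. Removing the length trend gave 3 lower and 1 higher, with a median of 0.03. Sdha, the flavoprotein, had 333, 313 and 313 CPM in sg-con and 276, 275 and 283 in sg-kiaa1522, a log2 fold change of -0.20 (SE 0.0556, edgeR adjusted p = 0.018), a call that was lost without any single sg-kiaa1522 library (adjusted p = 0.051 to 0.069). Sdhc, a membrane anchor, had 86.1, 101 and 96.1 CPM and then 71.8, 64.9 and 69.1, a log2 fold change of -0.46 (SE 0.0817, edgeR adjusted p = 0.0026). Sdhb, the iron-sulfur subunit, ranged from 57.9 to 81.8 CPM in sg-con and from 70.8 to 71.8 in sg-kiaa1522 (log2 fold change 0.01, or -0.12 without sg-con replicate 1), and Sdhd, the other anchor, from 89.2 to 94.7 and from 87.7 to 93.1 (-0.03, or 0.20 with the length trend removed). In that last setting Sdhd passed as higher (edgeR adjusted p = 0.036). The groups overlapped for Sdhb and Sdhd and not for Sdha and Sdhc.

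The strongest fall in complex II was that of an assembly factor. Sdhaf4 (ENSMUSG00000026154, chr1:23995939-24005656, minus strand), which helps join the flavinated Sdha to Sdhb, had 7.08, 9.13 and 8.18 CPM in sg-con and 4.35, 3.64 and 3.28 in sg-kiaa1522. Every sg-kiaa1522 library lay below the sg-con range, and the log2 fold change was -1.12 (SE 0.166, edgeR adjusted p = 0.0012). It had the fewest counts of all members, between 53 and 170 per library. The other assembly factors, Sdhaf1 (log2 fold change 0.12), Sdhaf2 (0.07) and Sdhaf3 (0.09), did not pass, and 69.6% of the exon bases of Sdhaf1 overlap an antisense gene. Without sg-con replicate 1 the median over complex II was -0.09.

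Complex III, the cytochrome bc1 complex, had 4 of its 8 nuclear members lower and 1 higher, with a median of -0.29 (-0.42 without sg-con replicate 1). After removal of the length trend 4 fell and 3 rose, with a median of -0.15. Those shares were 50% and 37.5%, against 26.9% and 28.1% of all genes. Uqcr11 (ENSMUSG00000020163, chr10:80402997-80406830, minus strand), a small subunit, had 32.9, 37.4 and 38.2 CPM in sg-con and 19.9, 18.8 and 15.2 in sg-kiaa1522, a log2 fold change of -1.01 (SE 0.124, edgeR adjusted p = 0.00053). Uqcrh, the acidic hinge protein that meets cytochrome c1, had 154, 150 and 143 CPM in sg-con and 197, 182 and 170 in sg-kiaa1522, a log2 fold change of 0.30 (SE 0.0728, edgeR adjusted p = 0.011). The groups were separate in both genes, in opposite directions, and the TPM ratio of Uqcr11 to Uqcrh was 0.470 ± 0.0527 in sg-con and 0.189 ± 0.0144 in sg-kiaa1522 (SD, n = 3). Uqcrb, which borders the quinone site, fell by 0.57 (SE 0.0857), Uqcr10 fell by 0.55 (SE 0.0930) and the core protein Uqcrc1 fell by 0.36 (SE 0.0814). Uqcrfs1, the Rieske iron-sulfur protein, ranged from 89.4 to 99.2 CPM in sg-con and from 98.0 to 105 in sg-kiaa1522, with overlapping groups (log2 fold change 0.10, edgeR adjusted p = 0.24). With the length trend removed it passed at 0.31 (adjusted p = 0.0035). The summed nuclear members overlapped between groups, at 799, 881 and 891 CPM in sg-con and 816, 800 and 765 in sg-kiaa1522.

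Complex IV, cytochrome c oxidase, had 5 of its 11 nuclear members lower and 1 higher, with a median of -0.22 (-0.37 without sg-kiaa1522 replicate 1). Once the length trend was removed, 3 fell and 3 rose (27.3% each, against 26.9% and 28.1% of all genes), with a median of -0.08. Cox5b, a matrix-side subunit that binds zinc, fell most of all 96 members. The gene (ENSMUSG00000061518, chr1:36691449-36693681 of GRCm38, plus strand) had 36.6, 48.2 and 57.3 CPM in sg-con and 17.5, 14.7 and 16.8 in sg-kiaa1522, so that the highest sg-kiaa1522 library was below the lowest sg-con library by a wide margin. Its log2 fold change was -1.54 (SE 0.169, edgeR adjusted p = 0.00032), which left 34.4% of the sg-con level, and it was -1.35 with the length trend removed. Cox5a, its neighbour on the matrix side, had 66.4, 72.6 and 74.1 CPM in sg-con and 76.6, 72.5 and 76.1 in sg-kiaa1522 (log2 fold change 0.08, edgeR adjusted p = 0.37, and 0.22 with adjusted p = 0.010 with the length trend removed). The TPM ratio of Cox5b to Cox5a was 0.878 ± 0.146 in sg-con and 0.287 ± 0.0176 in sg-kiaa1522 (SD, n = 3). Of the 50-base stretches of Cox5b transcripts 11.9% also occur in Gm11273, and how reads of these stretches were counted was not tested.

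Cox6a1 fell by 0.69 (SE 0.118), from 169, 209 and 209 CPM to 138, 120 and 107. Ndufa4, once counted with complex I and now placed in complex IV, fell by 0.44 (SE 0.1), Cox6b1 fell by 0.39 (SE 0.0833) and Cox7a2 fell by 0.33 (SE 0.0887). The call of Cox7a2 was lost without sg-con replicate 2, sg-kiaa1522 replicate 2 or sg-kiaa1522 replicate 3 (adjusted p = 0.053 to 0.064), and those of Cox6b1 (-0.11, adjusted p = 0.14) and Cox7a2 (-0.08, adjusted p = 0.42) with the length trend removed. Cox7a2l, a factor that joins complexes III and IV into supercomplexes, had 426, 465 and 459 CPM in sg-con and 543, 525 and 533 in sg-kiaa1522, all above the sg-con range, with a log2 fold change of 0.25 (SE 0.0575, edgeR adjusted p = 0.0089). Cox4i1, a large nuclear subunit beside the catalytic core, and Cox8a did not pass, with log2 fold changes of -0.06 and -0.12 and overlapping groups. Both turned positive with the length trend removed (0.13 and 0.18), and Cox8a passed as higher there (edgeR adjusted p = 0.032). Cox8a passed as lower without sg-con replicate 1 (-0.24, edgeR adjusted p = 0.018).

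Subunit isoforms of other tissues were nearly silent. Cox4i2 had 2 counts over all 6 libraries and Ndufa4l2 had 4, while Cox6b2, Cox7b2, Cox8b and Cox8c had none. Cox6a2, the heart and muscle form, had 2, 1 and 5 counts in sg-con and 16, 12 and 34 in sg-kiaa1522, and Cox7a1, another muscle form, had 10, 11 and 21 counts in sg-con and 3, 6 and 3 in sg-kiaa1522. Neither range overlapped, but neither gene passed the filter and neither was tested. The other names under the filter, Atp5g2, Atp5l, Cox7c, Ndufb4 and Ndufs5, had between 157 and 322 counts in all.

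Complex V, ATP synthase, had 10 of its 14 nuclear members lower and 1 higher, with a median of -0.45, which is also that of the nuclear subunits of complex I without assembly factors, and summed nuclear CPM of 3103 ± 214 in sg-con and 2360 ± 79.7 in sg-kiaa1522 (SD, n = 3), or 76.0%. After removal of the length trend 8 of these 14 fell and 1 rose (57.1% and 7.14%, against 26.9% and 28.1% of all genes). The subunits of the rotary head of ATP synthase diverged. Atp5b, the catalytic beta subunit, had 918, 1012 and 1039 CPM in sg-con and 587, 595 and 586 in sg-kiaa1522, a log2 fold change of -0.75 (SE 0.0622, edgeR adjusted p = 0.00011). Atp5a1, the alpha subunit that alternates with beta in the head in equal number, had 804, 855 and 854 CPM in sg-con and 873, 788 and 858 in sg-kiaa1522, a log2 fold change of 0.00 (SE 0.0615, edgeR adjusted p = 0.97) with overlapping groups. The TPM ratio of Atp5b to Atp5a1 was 0.874 ± 0.0274 in sg-con and 0.520 ± 0.0334 in sg-kiaa1522 (SD, n = 3). Atp5d, the delta subunit of the central stalk, had 166, 220 and 214 CPM and then 129, 107 and 109, a log2 fold change of -0.80 (SE 0.125, edgeR adjusted p = 0.0015). Atp5c1, the gamma subunit of the same stalk, had 192, 208 and 192 CPM in sg-con and 230, 239 and 225 in sg-kiaa1522, a log2 fold change of 0.23 (SE 0.0617, edgeR adjusted p = 0.016), a call lost without sg-con replicate 3 (adjusted p = 0.053) or sg-kiaa1522 replicate 2 (adjusted p = 0.069).

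All 4 genes of the peripheral stalk, which holds the head still, fell: Atp5f1 fell by 0.82, Atp5o by 0.58, Atp5j by 0.51 and Atp5h by 0.38 on the log2 scale. Their summed level was 495, 535 and 591 CPM in sg-con and 373, 345 and 334 in sg-kiaa1522, and the 4 calls stood with the length trend removed. Atp5f1 had 199, 215 and 225 CPM in sg-con and 125, 126 and 111 in sg-kiaa1522 (SE 0.0779, edgeR adjusted p = 0.00018). Of the exon-derived 50-base stretches of Atp5o, 41.6% are shared with other annotated genes. The membrane subunits fell too, Atp5j2 by 0.86 (SE 0.163) and Atp5k by 0.62 (SE 0.119). Of the genes for the c ring, which turns as protons pass, Atp5g3 had 95.1, 107 and 108 CPM in sg-con and 89.5, 85.9 and 82.2 in sg-kiaa1522, a log2 fold change of -0.27 (SE 0.0749, edgeR adjusted p = 0.019), and that call was lost without sg-con replicate 2 or 3 or sg-kiaa1522 replicate 2 or 3 (adjusted p = 0.053 to 0.079) and with the length trend removed (adjusted p = 0.055). Atp5g1, at 8 to 10.9 and 6.68 to 7.38 CPM, did not pass (-0.38, edgeR adjusted p = 0.065).

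**Figure D3:**
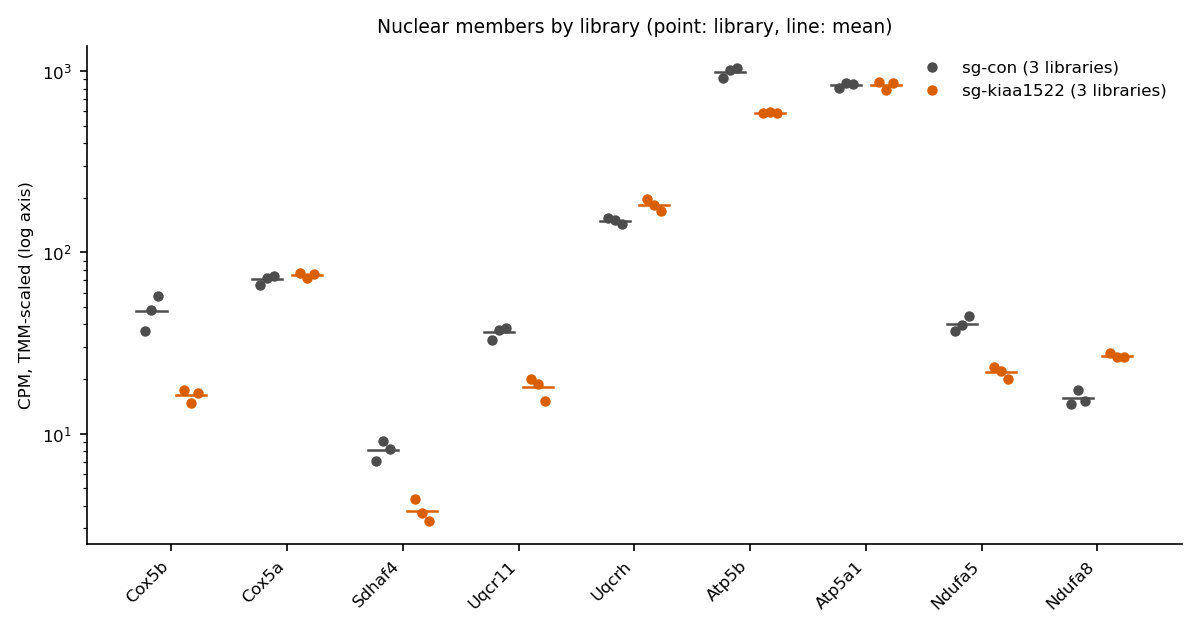
TMM-scaled CPM on a log axis for 9 nuclear members, with each point a library (3 sg-con in grey, 3 sg-kiaa1522 in orange) and a line at the group mean. Cox5b, Sdhaf4, Uqcr11, Atp5b and Ndufa5 lie lower in every sg-kiaa1522 library, Cox5a and Atp5a1 overlap, and Uqcrh and Ndufa8 lie higher.

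The promoters of the 3 nuclear members past the methods' threshold and of Ndufa8, the member that rose most, are given here from RefSeq on GRCm38.p6, from 250 bases before to 50 bases after the start of the gene. Capitals mark matches, on either strand, to motifs of factors known for binding respiratory chain promoters: GCGC and TGCGC with any base between them for NRF1, CCGGAAG for ETS factors such as GABP, and AANATGGCG for YY1. The positions are chr1:36691237-36691536, plus strand for Cox5b, chr10:80406772-80407071, minus strand for Uqcr11, chr1:24005591-24005890, minus strand for Sdhaf4 and chr2:36049289-36049588, minus strand for Ndufa8.
Cox5b: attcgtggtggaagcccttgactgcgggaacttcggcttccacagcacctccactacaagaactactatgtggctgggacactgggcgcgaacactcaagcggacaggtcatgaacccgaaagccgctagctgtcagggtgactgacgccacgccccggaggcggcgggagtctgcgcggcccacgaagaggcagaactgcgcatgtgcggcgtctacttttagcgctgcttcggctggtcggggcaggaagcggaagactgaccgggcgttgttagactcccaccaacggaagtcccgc
Uqcr11: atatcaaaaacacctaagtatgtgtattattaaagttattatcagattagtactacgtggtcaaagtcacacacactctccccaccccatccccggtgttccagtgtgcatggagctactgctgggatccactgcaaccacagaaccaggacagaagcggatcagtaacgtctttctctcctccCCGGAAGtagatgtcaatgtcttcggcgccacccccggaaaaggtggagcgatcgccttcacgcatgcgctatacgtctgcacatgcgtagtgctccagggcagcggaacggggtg
Sdhaf4: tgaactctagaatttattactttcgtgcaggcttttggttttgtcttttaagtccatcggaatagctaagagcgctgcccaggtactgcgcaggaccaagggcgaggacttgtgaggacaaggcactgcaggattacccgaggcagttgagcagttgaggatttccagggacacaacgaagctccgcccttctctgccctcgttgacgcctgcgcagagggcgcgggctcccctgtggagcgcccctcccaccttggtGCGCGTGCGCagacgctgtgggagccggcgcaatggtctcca
Ndufa8: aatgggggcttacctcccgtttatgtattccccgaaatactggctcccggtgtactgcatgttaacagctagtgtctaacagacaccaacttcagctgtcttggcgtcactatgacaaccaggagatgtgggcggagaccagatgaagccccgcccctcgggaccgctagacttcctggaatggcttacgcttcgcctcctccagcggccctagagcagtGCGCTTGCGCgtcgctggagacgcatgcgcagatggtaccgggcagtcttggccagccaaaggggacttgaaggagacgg
Sdhaf4, which fell, and Ndufa8, which rose, each hold an NRF1 match, Uqcr11 holds an ETS match and Cox5b holds none of these letters in this window. Of the 83 nuclear members 71 matched an entry of the promoter table. An NRF1 match was present in 18 of them (25.4%, against 5.19% of the 27025 genes in the table), an ETS match in 19 (26.8% against 9.93%) and a YY1 match in 12 (16.9% against 2.76%). The median log2 fold change was -0.31 with an NRF1 match and -0.38 without, -0.27 with an ETS match and -0.38 without, and -0.48 with a YY1 match and -0.35 without. With an NRF1 match 11 of 18 members fell and without one 30 of 53, with an ETS match 7 of 19 fell and without one 34 of 52, and with a YY1 match 10 of 12 fell and without one 31 of 59. A match is a description of the letters, not of binding.

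The mitochondrial genes other than mt-Nd6 were the most abundant members. Per length, the median over all 13 was 12658 TPM in sg-con, against 101 TPM for the nuclear members, and the order from the top was mt-Co1 (48825 ± 3872), mt-Co2 (42543 ± 687), mt-Atp6 (37189 ± 571) and mt-Atp8 (36281 ± 4566), of which mt-Atp6 and mt-Atp8 did not differ by more than their spread (SD, n = 3). mt-Nd6 was far below the other mitochondrial genes at 276 ± 44.8 TPM, and below several nuclear members. Among nuclear members Cox8a was highest in sg-con at 1005 ± 138 TPM, followed by Cox7a2l at 784 ± 19.8, and in sg-kiaa1522 Cox7a2l at 993 TPM and Cox8a at 987 TPM were nearly level. These levels hold within this annotation: with mean transcript length in place of summed exons the median of the mitochondrial members was 6635 TPM.

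**Figure D4:**
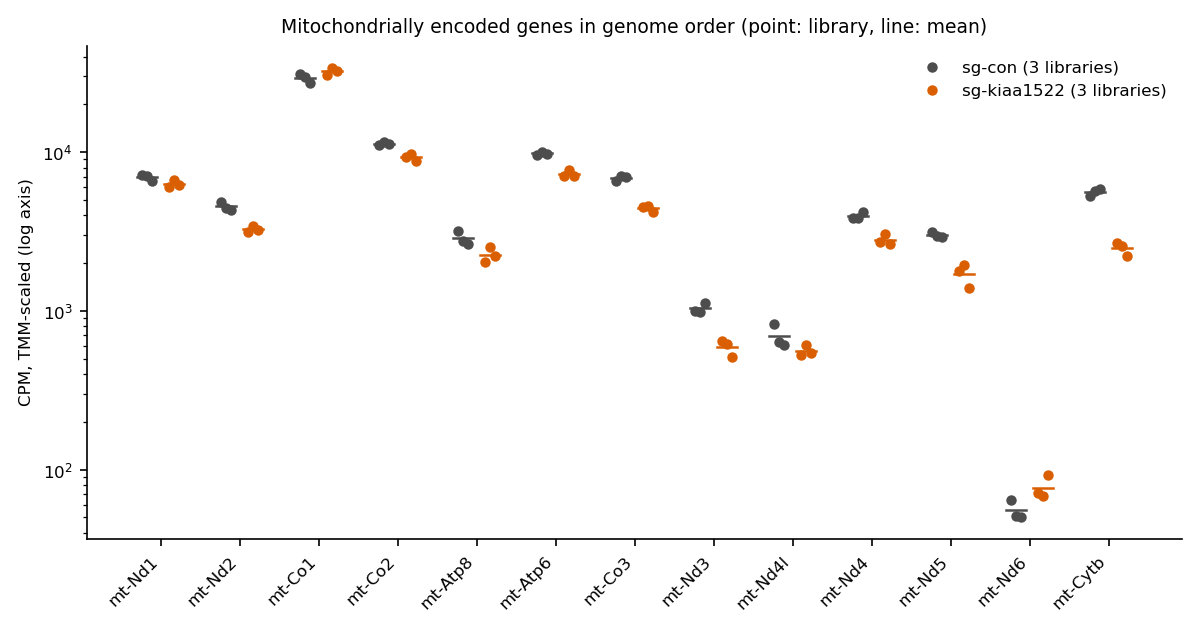
TMM-scaled CPM on a log axis for the 13 mitochondrial genes in the order of the genome, with each point a library (3 sg-con in grey, 3 sg-kiaa1522 in orange) and a line at the group mean. mt-Cytb, at the end of the order, shows the widest gap, mt-Nd1 and mt-Co1 overlap, and mt-Nd6 lies higher in every sg-kiaa1522 library.

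mt-Cytb, the cytochrome b of complex III, changed most of the mitochondrial genes. Lying at chrM:14145-15288 on the plus strand, it had 5266, 5704 and 5892 CPM in sg-con and 2676, 2579 and 2209 in sg-kiaa1522, a log2 fold change of -1.18 (SE 0.0843, edgeR adjusted p = 6.8e-05) that left 44.3% of the sg-con level. The groups were far apart. mt-Nd5 and mt-Nd3, membrane subunits of complex I, followed. mt-Nd5 had 3126, 2943 and 2908 CPM in sg-con and 1778, 1946 and 1398 in sg-kiaa1522 (log2 fold change -0.81, SE 0.115, edgeR adjusted p = 0.00099), and mt-Nd3 had 1002, 991 and 1118 against 644, 617 and 510 (-0.81, SE 0.0978, edgeR adjusted p = 0.00049). mt-Co3, a core subunit of complex IV, had 6570, 7078 and 6957 CPM against 4538, 4598 and 4219 (-0.63, SE 0.0573, edgeR adjusted p = 0.00015). In these genes no sg-kiaa1522 library came near the sg-con range.

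Smaller falls were those of mt-Nd4 (-0.50), mt-Nd2 (-0.48), the ATP synthase subunits mt-Atp6 (-0.43) and mt-Atp8 (-0.34), and mt-Co2 (-0.28), which carries the copper site that receives electrons from cytochrome c. With the length trend removed mt-Nd2 (-0.24), mt-Atp6 (-0.15) and mt-Co2 (-0.00) no longer passed and mt-Atp8 was at 0.01, and the call of mt-Atp8 was also lost without sg-kiaa1522 replicate 1 or 3. mt-Nd4l ranged from 613 to 830 CPM in sg-con and from 528 to 607 in sg-kiaa1522 (-0.31, edgeR adjusted p = 0.063, and -0.40 with 0.034 without sg-con replicate 3). mt-Nd1 and mt-Co1 had overlapping groups. mt-Nd1 had 7218, 7092 and 6609 CPM against 6072, 6642 and 6236 (-0.14, edgeR adjusted p = 0.077, and -0.16 with 0.049 when scaled by library size alone). mt-Co1, the catalytic subunit of complex IV and the most abundant member, had 30850, 29532 and 27336 CPM against 30672, 33916 and 32383 (0.14, edgeR adjusted p = 0.091). It passed as higher without sg-con replicate 1 (0.18, adjusted p = 0.040) and with the length trend removed (0.33, adjusted p = 0.027).

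mt-Co1 alone took 2.76% to 3.09% of counts in sg-con and 3.06% to 3.36% in sg-kiaa1522. The 3 mitochondrial subunits of complex IV therefore summed to 48496, 48190 and 45504 CPM in sg-con and 44555, 48226 and 45349 in sg-kiaa1522, which overlapped. The 7 of complex I summed to 20268 ± 604 and 15319 ± 909 CPM (SD, n = 3), or 75.6%, and those of complex V to 12692 ± 246 and 9555 ± 629, or 75.3%. The TPM ratio of mt-Cytb to mt-Co1 was 0.261 ± 0.0303 in sg-con and 0.104 ± 0.0129 in sg-kiaa1522.

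The fold changes tended to be lower for genes farther along mitochondrial DNA. Counting from the start of mt-Nd1 at position 2751, mt-Co1 begins at 2.58 kb, mt-Co3 at 5.86 kb, mt-Nd5 at 8.99 kb and mt-Cytb at 11.39 kb. Over the 12 genes on the plus strand, the products of the long heavy-strand precursor, distance and log2 fold change had a Spearman correlation of -0.74 and a Pearson correlation of -0.77. This is a description across genes of 1 molecule that share libraries, precursor and counting, not across samples. Without mt-Cytb the correlations were -0.66 and -0.64 over 11 genes. The descent was not even, as for instance mt-Co1 (0.14 at 2.58 kb) lay above mt-Nd1 and mt-Nd2 (-0.14 at 0.00 kb and -0.48 at 1.16 kb), and mt-Nd4l (-0.31 at 7.13 kb) and mt-Nd4 (-0.50 at 7.42 kb) lay above mt-Nd3 (-0.81 at 6.71 kb).

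mt-Nd6, the only gene here on the minus strand, rose. It had 64.3, 51.4 and 50.5 CPM in sg-con and 71.4, 67.8 and 92.0 in sg-kiaa1522, a log2 fold change of 0.48 (SE 0.144, edgeR adjusted p = 0.026). All sg-kiaa1522 libraries lay above the sg-con range, but the lowest of them was close to the highest sg-con library, and the call was lost without sg-con replicate 2 (0.42, adjusted p = 0.087), sg-con replicate 3 (0.41, adjusted p = 0.077) or sg-kiaa1522 replicate 3 (0.33, adjusted p = 0.080). It lies at chrM:13552-14070, between mt-Nd5 and mt-Cytb, the genes with the large falls, and shares 14 bases (2.70% of its length) with mt-Nd5. Whether counting used strand is not stated, so reads from RNA of the opposite strand over this gene cannot be told apart from its own. The TPM ratio of mt-Nd6 to mt-Nd5 was 0.0649 ± 0.00635 in sg-con and 0.165 ± 0.0582 in sg-kiaa1522.

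**Figure D5:**
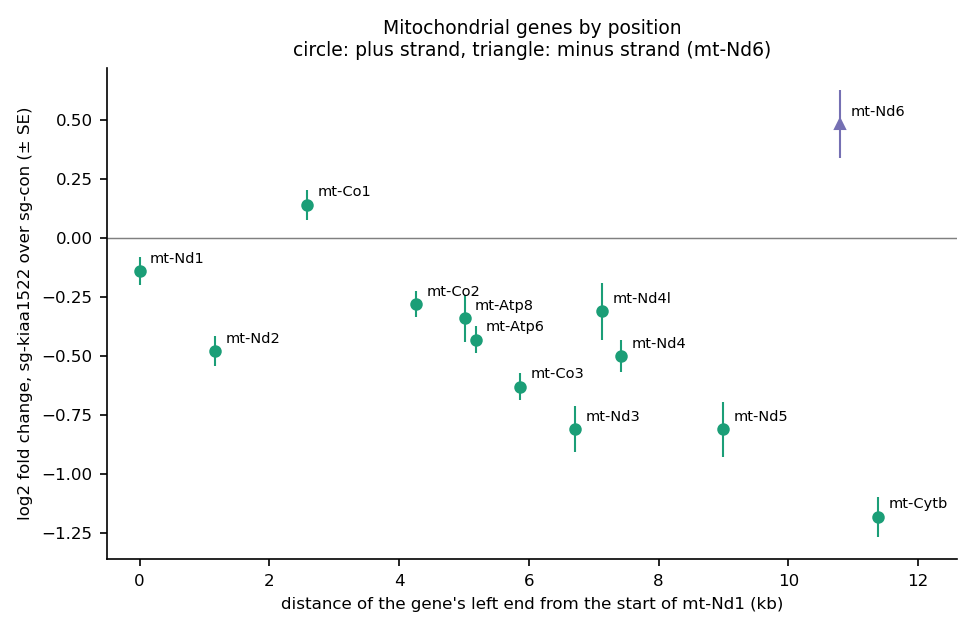
Log2 fold change with its standard error of the 13 mitochondrial genes against the distance in kb of the gene's left end from the start of mt-Nd1, with plus-strand genes as circles and mt-Nd6, on the minus strand, as a triangle. The circles run from -0.14 at mt-Nd1 to -1.18 at mt-Cytb, unevenly, and the triangle stands alone at 0.48.

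Mitochondrial DNA has a copy in the nuclear genome on chromosome 1. The files list 7 annotated pieces of it. Over their aligned lengths the pieces were identical to mt-Co2, mt-Atp6, mt-Co3, mt-Nd4l and mt-Nd4, had 1 difference from mt-Nd3 and 6 from mt-Co1, and had counts equal to between 2.68% and 16.3% of those of the mitochondrial gene. The study's methods state that uniquely mapped fragments were counted, yet the 5 pieces without a difference had between 943 and 27727 counts per library, and how fragments were divided between gene and copy was not tested. The start of mt-Nd3 (bases 1 to 60 of the gene, chrM:9459-9806 in full) and of its copy Gm28438 (chr1:24612775-24613119, minus strand) is shown for the base by which the pair can be told apart, T3C counted from the first base of the gene, in capitals.
mt-Nd3: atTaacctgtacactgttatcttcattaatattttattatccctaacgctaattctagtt
Gm28438: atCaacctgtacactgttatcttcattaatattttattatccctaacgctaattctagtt
Of the 50-base stretches of mt-Nd3, mt-Nd4l, mt-Atp6, mt-Co3 and mt-Co2, at least 98.0% occur in another annotated gene. mt-Cytb and mt-Nd6 share none of theirs, and mt-Nd5 shares 7.61%. Among the copies, Gm28437 (mt-Co3) had a log2 fold change of -0.69 and Gm28661 (mt-Co2) of -0.40, both lower like their genes, while Gm29216 (mt-Co1) was at -0.12 (edgeR adjusted p = 0.42) beside 0.14 for its gene, and neither passed. With the counts of each copy added to its gene, another alternative added with the values in view, mt-Co3 stayed at -0.63, mt-Nd3 was at -0.82, mt-Co2 at -0.30 and mt-Co1 at 0.14. Over the 5 plus-strand genes without an annotated piece on chromosome 1 (copies were sought among annotated transcripts only, and mt-Nd2 shares 8.19% of its stretches with Gm13339) the correlation of fold change with distance was -0.90 (Spearman) and -0.91 (Pearson), again as a description.

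The genes that make, process and translate mitochondrial RNA gave mixed counts. Of 20 tested genes for transcription and replication of mitochondrial DNA 5 fell and 5 rose: Mterf2, of the transcription terminator family, fell by 1.67 (SE 0.217) and Tfb1m, an rRNA methyltransferase, fell by 0.86 (SE 0.103), while the pyrimidine nucleotide carrier Slc25a33 rose by 1.08 (SE 0.110) and Mterf3 by 0.55 (SE 0.111). Of 19 genes for mitochondrial RNA processing and stability 2 fell and 5 rose. Slirp, partner of Lrpprc in keeping mitochondrial mRNAs stable, had 10.6, 16.6 and 21.3 CPM in sg-con and 11, 9.39 and 9.85 in sg-kiaa1522 (log2 fold change -0.69, SE 0.237, edgeR adjusted p = 0.042), with overlapping groups. Rexo2, an oligoribonuclease, fell by 0.47, and Fastkd1 and Fastkd5, RNA-binding proteins of mitochondria, each rose by 0.82. Of 75 genes of the mitochondrial ribosome, which translates the 13 mitochondrial mRNAs, 32 (42.7%) fell and 5 rose, led by Mrpl24 (-1.37) and Mrpl57 (-1.01) on one side and Mrpl43 (0.48) and Mrpl38 (0.45) on the other. With the length trend removed 23 of them fell and 6 rose.

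None of 13 tested regulators of mitochondrial biogenesis fell and 6 rose (26.3% of all tested genes did each). Removing the length trend gave 1 lower and 6 higher. Ppargc1a, the coactivator PGC-1alpha that is known to drive respiratory chain genes, had 4.11, 4.35 and 2.99 CPM in sg-con and 11.3, 9.28 and 10.7 in sg-kiaa1522, a log2 fold change of 1.44 (SE 0.173, edgeR adjusted p = 0.00048). Pprc1, a related coactivator, had 37.9, 55.4 and 52.2 CPM against 90.2, 84.0 and 124, a log2 fold change of 1.03 (SE 0.187, edgeR adjusted p = 0.0029). Neither gene's groups overlapped, and both moved opposite to most respiratory chain mRNAs.

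Among 38 assembly factors outside the name rule 15 fell and 6 rose. Cox20, which escorts the newly made mt-Co2 protein into complex IV, had 21.8, 25.8 and 31.7 CPM in sg-con and 9.10, 9.72 and 8.62 in sg-kiaa1522, a log2 fold change of -1.53 (SE 0.152, edgeR adjusted p = 0.00021). Pet100, another complex IV factor, fell by 1.05 (SE 0.225), whereas Cox10, a heme farnesyltransferase, rose by 0.63 and Ecsit, a complex I factor, rose by 0.58. With the length trend removed 11 fell and 9 rose. Of 24 other carriers and subunits outside the name rule 8 fell and 4 rose: 1110001J03Rik, which RefSeq calls Fmc1, an assembly factor of ATP synthase, fell by 1.68 (SE 0.164) and Coq4, needed for ubiquinone synthesis, fell by 1.24 (SE 0.174), while C1qbp, a matrix protein, and Gpd2, the mitochondrial glycerol-3-phosphate dehydrogenase, each rose by 0.51. Removing the length trend gave 8 lower and 7 higher among these 24.

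Of 24 genes of the pyruvate dehydrogenase complex and citric acid cycle 8 fell and 6 rose, with a median of -0.03. Pdk1, the kinase that switches pyruvate dehydrogenase off, fell by 0.98 (SE 0.0899) and Fh1, fumarase, fell by 0.84 (SE 0.0793), while Pdp2, the opposing phosphatase, rose by 0.86 (SE 0.142) and Dld rose by 0.41. Of 14 mitochondrial antioxidant genes 8 fell and none rose, including the uncoupling protein family member Ucp2 (-0.94) and glutathione peroxidase Gpx1 (-0.84). Among these 14, removing the length trend gave 7 lower and 1 higher. Of 23 genes of protein import 7 fell and 4 rose, with Timm22 (-1.17) and Tomm40l (-0.48, with overlapping groups) lowest and Timm10 (0.95) and Tomm20 (0.47) highest, and with the length trend removed 5 fell and 6 rose. Of 17 chaperones and proteases 3 fell, including Spg7 (-0.48) and Trap1 (-0.36), and 3 rose, including Dnaja3 (0.61) and Hspa9 (0.45). Of 10 genes for fusion and fission of mitochondria Mfn1 (-0.41) and Fis1 (-0.40) fell and Opa1 (0.43) rose. These lists were drawn up with earlier results of the same libraries known, and their counts stand beside 26.3% of all tested genes lower and 26.3% higher.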

How the data were processed

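RNA of 3 sg-con and 3 sg-kiaa1522 libraries was sequenced on an Illumina instrument. The authors trimmed adaptors and removed rRNA reads with Seqtk, mapped to GRCm38 with HISAT2 2.0.4 and deposited counts per gene, by their methods of uniquely mapped fragments, from StringTie 1.3.0 (versions from the submitters' processing notes). Annotation release and strand setting are not given in the sources used here.

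Genes whose counts over all 6 libraries summed to above 500 were scaled by TMM and tested with edgeR 4.0.16 (R 4.3.3), glmQLFit and glmQLFTest, without covariates, with Benjamini-Hochberg adjustment over all 10046 genes. The common biological coefficient of variation was 0.127. CPM and TPM were computed from the counts, with exon lengths from GENCODE M21 on GRCm38, which matched 34267 genes. The test was tested on simulated data. Within groups, chi-square divided by its degrees of freedom was 12.3 or more for every pair of libraries, so none repeats another.

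The members and gene lists were chosen with earlier results of these data known. Named are all mitochondrial members, members past the methods' threshold, the 3 largest rises and falls of each complex among genes that passed with separate groups, core subunits, isoform families, and the 2 largest rises and falls of each list; ratios and other members were named after their values were seen. Members not named are counted in the totals, and 1 of them, which the rule would name, is not reported here. Alternatives were the likelihood ratio and exact tests, DESeq2 1.42.0, RLE factors, library size alone, scaling over nuclear genes, 2 other filters, a replicate block, each library left out, mean transcript length, and, chosen after the values were seen, a loess offset on exon length (span 0.5) and the addition of nuclear copies.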

Additional observations from a re-analysis of the deposited data

How the results depend on the processing

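Of 52 named members, all 52 kept their direction and their side of the threshold under RLE size factors, filterByExpr, scaling over nuclear genes and addition of the nuclear copies, and 51 did so under the likelihood ratio test, the exact test, DESeq2 and the filter of at least 1 count, where mt-Nd4l passed. The number of members lower stayed between 54 and 58 and that of members higher at 6 in these settings and with library size alone. Under library size alone Atp5a1 and Sdhb, both near 0, were each at -0.01, and mt-Nd1 passed (-0.16, edgeR adjusted p = 0.049). Same-numbered libraries of the groups did not deviate together (correlations -0.21, -0.051 and -0.17), so the numbers do not pair them. With the replicate block 44 members were lower and 5 higher, with 6 of the 52 named calls lost.

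Leaving out each library in turn gave 44 to 64 members lower and 4 to 7 higher, and 3 to 7 lower and 0 higher past the methods' threshold. Medians ranged from -0.44 to -0.31 (all), -0.44 to -0.30 (nuclear), -0.48 to -0.41 (mitochondrial), -0.46 to -0.31 (complex I), -0.09 to 0.01 (II), -0.42 to -0.19 (III), -0.37 to -0.16 (IV) and -0.55 to -0.39 (V). Atp5a1 lay between -0.03 and 0.05 and Sdhb was at its lowest, -0.12, without sg-con replicate 1.

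With the length trend removed 15 members were higher, 1 was lower and 1 higher past the methods' threshold, and medians were -0.20 (all), -0.20 (nuclear), -0.15 (mitochondrial), -0.22 (complex I), 0.03 (II), -0.15 (III), -0.08 (IV) and -0.35 (V). With that and the replicate block 37 were lower and 9 higher, 1 was lower and 1 higher past the threshold, and the medians were -0.20, -0.20, -0.15, -0.21, 0.03, -0.15, -0.08 and -0.35. The sign turned for Cox4i1 (0.13 without the block, 0.13 with it), Cox8a (0.18, 0.18), Ndufs8 (0.11, 0.12), Sdhd (0.20, 0.20), mt-Atp8 (0.01, 0.03), mt-Nd1 (0.10, 0.11) and mt-Nd4l (0.01, 0.04). The cause was not tested. With mean transcript length the median mitochondrial TPM in sg-con was 6635. Sdhaf4 had the fewest counts, 53 to 170 per library.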
